A study of Mus musculus with 18 samples.

Results

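Hopx and 9 genes of the S100, annexin and galectin families were followed in CD4+ T cells of 3 states. The 10 genes are Hopx, S100a4, S100a6, S100a10, S100a11, Anxa2, Anxa5, Anxa6, Lgals1 and Lgals3, out of 23219 genes in the total RNA table. They were picked by name as genes associated with T-cell memory to be set beside Hopx, with their total RNA levels in these libraries already known. Their levels and differences are therefore a description, and no p-value is given for them. Hopx-high cells carried more RNA of Hopx, S100a4, S100a6, Anxa2, Lgals1 and Lgals3 than naive cells, with no overlap between libraries. The same held for 13.2% of all tested genes, and for Hopx it follows from how the cells were grouped. Levels of S100a10, Anxa5 and Anxa6 lay close together in all 3 states. S100a11 rested on few reads and had its 3 highest levels in the naive libraries, a pattern not counted over all tested genes.

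Spleens and lymph nodes of C57BL6 mice were the source of the CD4+ T cells. Hopx-high and Hopx-low cells were antigen-specific T cells that dendritic cells had activated, named in the labels by their level of Hopx, and they are set against naive T cells, with 3 total RNA libraries per state. The labels give every library, naive ones included, the same treatment: chimeric antibodies that deliver antigen to dendritic cells, injected intraperitoneally 5 days before the cells were collected. The sources used here do not name the antigen, any T-cell receptor transgene or Hopx reporter, or the gates that separated the states. Nor do the labels say whether libraries came from separate animals or pools, so the spread between libraries may be technical.

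Hopx is an unusually small homeodomain protein that lacks DNA-binding activity of its own. It acts through partners, among them serum response factor and histone deacetylases, and in mouse regulatory T cells induced by dendritic cells it has been linked to low expression of AP-1 factors. S100 proteins are small calcium-binding proteins that latch onto other proteins. Annexins bind membrane phospholipids when calcium rises, and several of them work as complexes with an S100 partner. Galectins bind sugars on cell-surface glycoproteins, including those of the T-cell receptor complex. Many genes of these families are more abundant in effector and memory T cells than in naive T cells, in mouse and human.

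Levels are given in bases per megabase, meaning aligned bases over a gene for each megabase aligned in that library. They are not divided by gene length and so compare states for a gene, never one gene with another. The libraries held 105 to 329 megabases. Reads are estimates throughout, made by dividing bases by the library's median of non-zero gene values up to 200 bases. That median was 108 to 115 bases. By this estimate a level of 1 corresponded to between 0.945 and 2.94 reads, so low levels stand for a handful of reads. Differences are on the log2(level + 1) scale and are followed by their standard error from a limma fit over all 9 libraries. That scale understates the change of genes with low levels. A difference is called when its Benjamini-Hochberg adjusted p over the 11320 tested genes is below 0.05. The mitochondrial synthetase gene Lars2 took 18.9% of the bases in Hopx-high replicate 3 and 17.98% in Hopx-low replicate 1, against 0.525% to 6.55% elsewhere. Replicate 3 of each state held Xist coverage and no Ddx3y coverage, the reverse of replicates 1 and 2, so cells of different sex were balanced over the states (Lars2, Xist and Ddx3y were picked after their values were seen). The 6 markers of the CD4+ T-cell list found in the table, Cd4, Cd3e, Cd3d, Cd3g, Cd247 and Lck, were covered in every state. Their summed level was 4313 to 5513 in Hopx-high, 4556 to 5492 in Hopx-low and 4918 to 5711 in naive libraries. Cd4 by itself was at 781 to 1012, 627 to 1029 and 953 to 1105 in that order. The CD8 marker Cd8b1 was covered too, at 37.6 to 42.2, 45.5 to 80.2 and 120 to 145. How pure the labelled cell type was could not be tested from these levels. Of the 6 listed markers, Cd3g alone was called, lower in Hopx-high and in Hopx-low than in naive cells. These calls were lost in 3 and 4 of 9 leave-outs of single libraries.

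All positions are on GRCm38.p6, the mm10 build, where Hopx spans bases 77086986 to 77115123 of chromosome 5. Its annotated span also holds the long non-coding RNA Hopxos and a small nucleolar RNA. RefSeq gives 2 Hopx start sites with a promoter window, here 250 bases before to 50 bases after the start. The window of the upstream start is shown because it carried a match to the CArG box, the element that serum response factor binds, which stands in capitals and begins 83 bases before the start (GRCm38.p6, minus strand, chr5:77115074-77115373).
Hopx: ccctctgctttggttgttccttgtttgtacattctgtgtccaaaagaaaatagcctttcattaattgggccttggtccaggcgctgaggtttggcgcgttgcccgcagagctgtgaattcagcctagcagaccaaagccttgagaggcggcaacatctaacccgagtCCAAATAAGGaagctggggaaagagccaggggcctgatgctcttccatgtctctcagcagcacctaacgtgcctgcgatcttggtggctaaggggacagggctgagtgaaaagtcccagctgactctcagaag
CArG matches were present in 1.63% of 32851 mouse promoter windows of 300 bases, and the window of the other Hopx start held no match to any motif searched. A match is a string of letters and no evidence of binding.

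Hopx separated all 3 states without overlap. Its level was 34.2, 26.1 and 23.1 in Hopx-high libraries, 5.90, 7.49 and 7.59 in Hopx-low libraries, and 1.76, 0 and 1.15 in naive libraries. The group means were 27.8 ± 5.77, 6.995 ± 0.948 and 0.971 ± 0.894 in that order (SD, n = 3 each). The log2 difference was 3.97 ± 0.44 for Hopx-high against naive, 2.14 ± 0.44 for Hopx-low against naive and 1.84 ± 0.44 for Hopx-high against Hopx-low. In reads, the coverage amounted to 64.6, 61.3 and 22.4 in Hopx-high libraries and to 5.58, 22.0 and 18.2 in Hopx-low libraries. Naive libraries held 4.26, 0 and 3.19 reads' worth. The order from Hopx-high through Hopx-low to naive thus rests on few reads at its low end. The call between the activated states was lost without Hopx-low replicate 1, 2 or 3, at 1.74, 1.88 and 1.89, or without Hopx-high replicate 1 or 3, at 1.68 and 1.96. Since the cells were grouped by Hopx, this order checks the labels and is no finding.

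**Figure D1:**
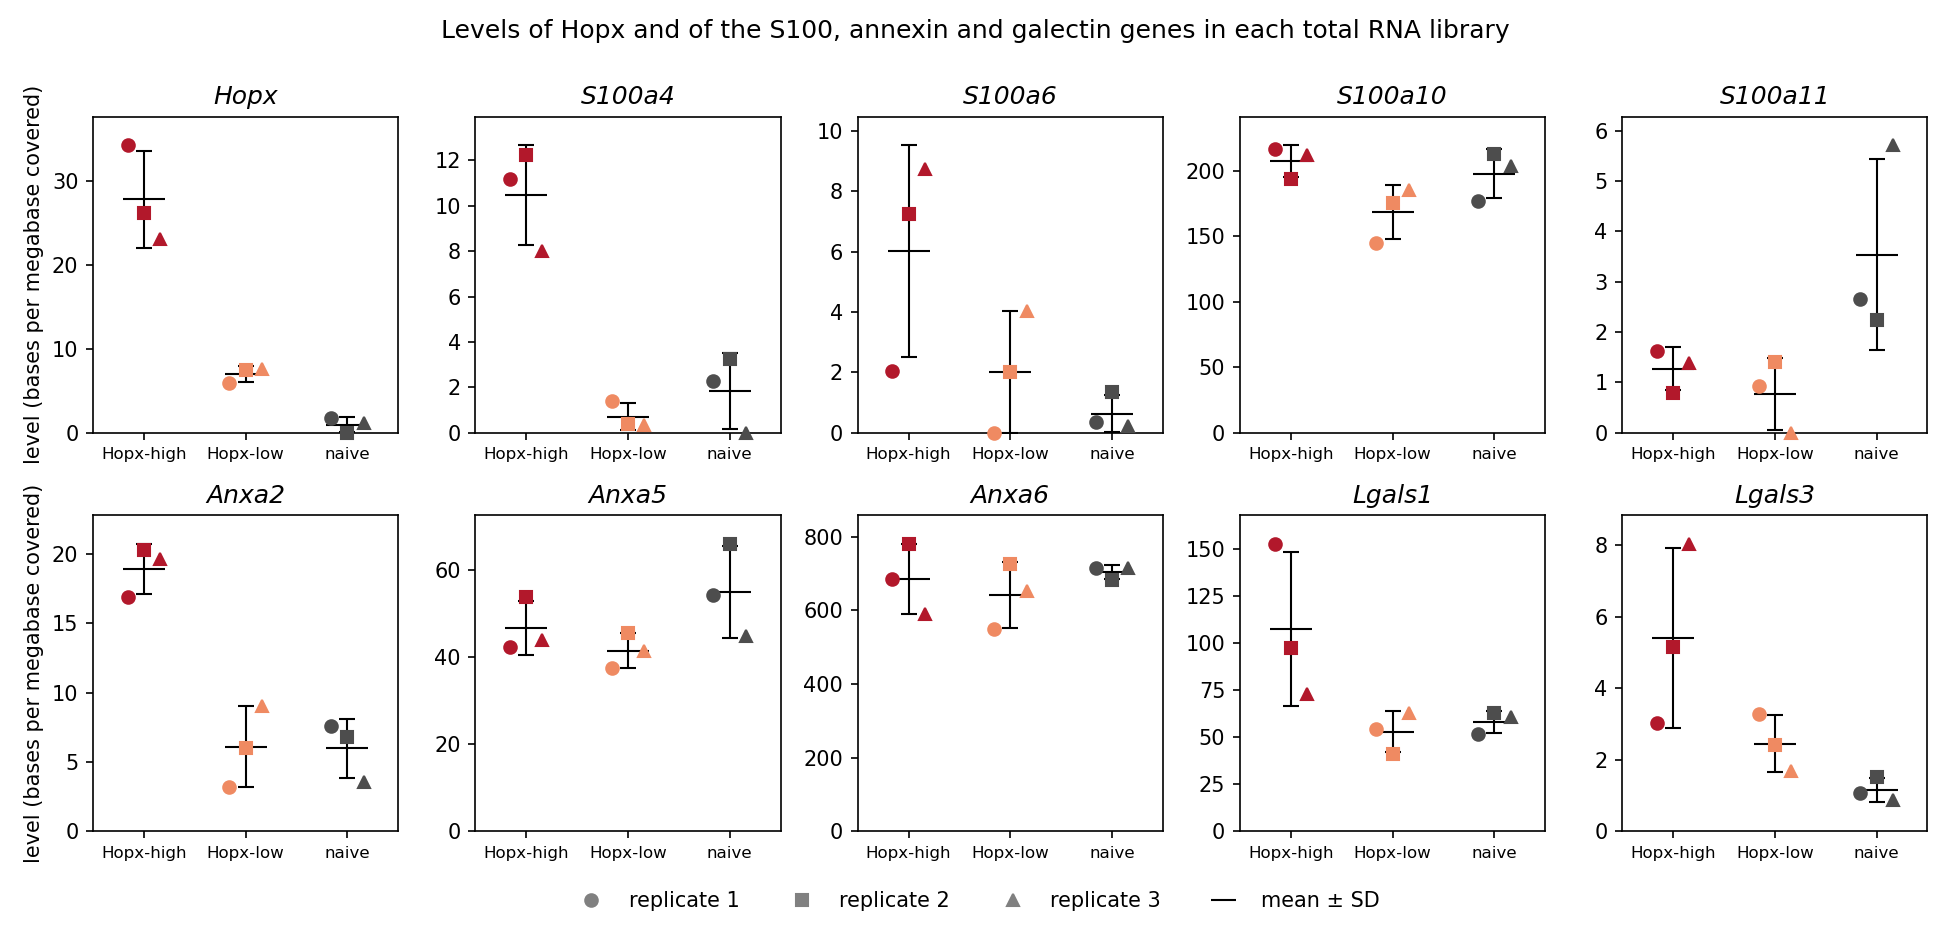
Level of each of the 10 genes in bases per megabase covered (vertical axes, each starting at 0) in Hopx-high, Hopx-low and naive libraries. Points are single libraries with a symbol per replicate number, and bars show the mean ± SD of 3 libraries; S100a4 and Anxa2 stand high in the Hopx-high libraries alone, at means of 10.5 and 18.9.

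S100a4, a regulator of non-muscle myosin and cell motility, was high in Hopx-high libraries only. Its level was 11.2, 12.2 and 8.02 in Hopx-high libraries, 1.41, 0.389 and 0.333 in Hopx-low libraries, and 2.30, 3.25 and 0 in naive libraries. Every Hopx-high library exceeded every other library, whereas the Hopx-low and naive libraries overlapped. The means were 10.5 ± 2.18, 0.711 ± 0.607 and 1.85 ± 1.67 in the same order of states (SD, n = 3 each). The log2 difference was 2.23 ± 0.54 for Hopx-high against naive, −0.55 ± 0.54 for Hopx-low against naive and 2.78 ± 0.54 for Hopx-high against Hopx-low. Summed over 3 libraries, the coverage came to 57.6 reads in Hopx-high, 3.28 in Hopx-low and 12.2 in naive cells.

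S100a6 encodes calcyclin, which binds the ubiquitin-ligase adaptor made from Cacybp. Its level was 2.06, 7.24 and 8.75 in Hopx-high libraries, 0, 2.03 and 4.04 in Hopx-low libraries, and 0.348, 1.35 and 0.210 in naive libraries. Hopx-high and naive libraries did not overlap, but Hopx-low libraries reached into both. On the log2 scale S100a6 differed by 2.00 ± 0.59 for Hopx-high against naive, 0.66 ± 0.59 for Hopx-low against naive and 1.34 ± 0.59 for Hopx-high against Hopx-low. The Hopx-high call against naive was lost without naive replicate 1, at 1.89, without naive replicate 3, at 1.82, or without Hopx-high replicate 3, at 1.68.

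S100a10, which has lost calcium binding and pairs with Anxa2 at the plasma membrane, was well covered in every library. Its level was 217, 194 and 212 in Hopx-high libraries, 145, 175 and 185 in Hopx-low libraries, and 177, 213 and 204 in naive libraries. The Hopx-high libraries lay above the Hopx-low ones and among the naive ones. Its log2 difference was 0.07 ± 0.18 for Hopx-high against naive, −0.23 ± 0.18 for Hopx-low against naive and 0.30 ± 0.18 for Hopx-high against Hopx-low, none of them called. S100a11, a partner of annexin A1, was opposite in sign to S100a4 for Hopx-high against naive cells only. Its level was 1.63, 0.798 and 1.38 in Hopx-high libraries, 0.925, 1.41 and 0 in Hopx-low libraries, and 2.65, 2.24 and 5.71 in naive libraries. All 3 naive libraries lay above all activated ones, a pattern that was not counted over all tested genes. For S100a11 the log2 difference was −0.94 ± 0.51 for Hopx-high against naive, −1.37 ± 0.51 for Hopx-low against naive and 0.43 ± 0.51 for Hopx-high against Hopx-low, and none was called. The S100a11 coverage summed to 6.28 reads in Hopx-high, 5.01 in Hopx-low and 26.8 in naive cells, and a pseudogene copy is annotated on chromosome 12, so its level is uncertain.

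The 4 S100 genes lie on chromosome 3 but are not all neighbours. S100a4 (90603770 to 90606045) and S100a6 (90612894 to 90614414) are 6.85 kb apart, with only S100a5 between them, and S100a5 was at 0 in every library. S100a11 (93520496 to 93526288) and S100a10 (93555117 to 93564645) are 28.8 kb apart and begin 2825 kb beyond S100a9. Between S100a1 and S100a9 the annotation holds 12 protein-coding genes, every one an S100 gene, and 4 of them passed the filter for testing. S100a4 and S100a6 of that cluster stood high in Hopx-high cells, while S100a13 of the same cluster averaged 40.95 ± 14.6 in Hopx-high, 30.6 ± 10.3 in Hopx-low and 40.2 ± 9.31 in naive cells (SD, n = 3 each).

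Promoter windows were available for 7 of the 10 genes, from RefSeq on GRCm38.p6. Those of S100a4, S100a6, S100a11 and Anxa2 are shown because these genes had contrasting levels across the states. They were searched on both strands for TGANTCA, the AP-1 site, CACACCC, the site of Klf factors, and TGTGGT, the site of Runx factors, as well as for the CArG box, with motifs chosen after the levels were known. Capitals mark matches, on either strand. The windows are chr3:90603520-90603819 for S100a4, chr3:90612644-90612943 for S100a6, chr3:93520246-93520545 for S100a11 and chr9:69453433-69453732 for Anxa2, all on the plus strand.
S100a4: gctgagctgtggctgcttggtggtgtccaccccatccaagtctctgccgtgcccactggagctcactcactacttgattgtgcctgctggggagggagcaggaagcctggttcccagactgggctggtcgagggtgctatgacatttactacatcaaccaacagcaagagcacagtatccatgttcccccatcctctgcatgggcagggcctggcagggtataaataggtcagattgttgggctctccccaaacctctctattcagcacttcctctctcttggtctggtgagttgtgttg
S100a6: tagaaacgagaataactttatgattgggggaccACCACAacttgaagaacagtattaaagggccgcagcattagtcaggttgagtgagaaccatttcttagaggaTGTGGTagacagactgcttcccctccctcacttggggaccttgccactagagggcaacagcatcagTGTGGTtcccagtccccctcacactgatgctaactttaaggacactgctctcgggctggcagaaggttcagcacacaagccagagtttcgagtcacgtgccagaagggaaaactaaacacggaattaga
S100a11: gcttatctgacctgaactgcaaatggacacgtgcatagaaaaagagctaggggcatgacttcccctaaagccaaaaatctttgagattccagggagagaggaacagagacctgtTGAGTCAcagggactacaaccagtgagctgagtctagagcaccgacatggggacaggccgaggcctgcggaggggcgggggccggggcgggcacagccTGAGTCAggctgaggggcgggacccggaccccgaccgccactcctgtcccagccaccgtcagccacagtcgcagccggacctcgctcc
Anxa2: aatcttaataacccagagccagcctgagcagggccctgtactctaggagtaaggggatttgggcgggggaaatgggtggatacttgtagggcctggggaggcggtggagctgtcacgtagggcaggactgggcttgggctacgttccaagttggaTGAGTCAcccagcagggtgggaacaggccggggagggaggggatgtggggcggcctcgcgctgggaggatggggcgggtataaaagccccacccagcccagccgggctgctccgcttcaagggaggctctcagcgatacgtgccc
S100a4 had no match. S100a6 had 3 Runx matches, beginning 217, 145 and 79 bases before the start, and Runx matches occurred in 16.8% of all windows. S100a11 had 2 AP-1 matches, at 136 and 38 bases before the start, and Anxa2 had 1, at 95 bases before it, against 7.81% of all windows. Whether these matches bear on the levels was not tested. Anxa5 held a Klf match, found in 7.95% of windows, and a CArG match, while Lgals3 held none of the 4 motifs.

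Among the annexins, Anxa2 set Hopx-high cells apart. Anxa2 joins membranes and actin in a complex with S100a10, and lies on chromosome 9, 69453683 to 69491792, a span that includes the microRNA gene Mir3109. Its level was 16.9, 20.3 and 19.6 in Hopx-high libraries, 3.23, 6.0 and 9.06 in Hopx-low libraries, and 7.57, 6.77 and 3.58 in naive libraries. The Hopx-high libraries were tightly grouped and all above the others, which overlapped each other. The means were 18.9 ± 1.79, 6.10 ± 2.92 and 5.98 ± 2.11 in the same order (SD, n = 3 each). The log2 difference was 1.56 ± 0.41 for Hopx-high against naive, −0.01 ± 0.41 for Hopx-low against naive and 1.57 ± 0.41 for Hopx-high against Hopx-low. Against naive, the call was lost without naive replicate 3, at 1.28. Against Hopx-low, it was lost when any of 8 of the 9 libraries was left out and held without Hopx-low replicate 3, with values from 1.24 to 1.87.

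Anxa5 and Anxa6 showed no such step. Anxa5, which binds phosphatidylserine, lies on chromosome 3, 36448923 to 36475887. Its level was 42.3, 53.8 and 43.9 in Hopx-high libraries, 37.5, 45.5 and 41.3 in Hopx-low libraries, and 54.1, 65.9 and 44.9 in naive libraries, with overlap between Hopx-high libraries and both other states. Its log2 difference was −0.22 ± 0.24 for Hopx-high against naive, −0.39 ± 0.24 for Hopx-low against naive and 0.16 ± 0.24 for Hopx-high against Hopx-low. Anxa6, a large annexin that organises membranes and the actin cortex, lies on chromosome 11, 54978953 to 55033471. Its level was 686, 780 and 591 in Hopx-high libraries, 549, 727 and 653 in Hopx-low libraries, and 715, 683 and 715 in naive libraries, so all 3 states overlapped. Its log2 difference was −0.05 ± 0.16, −0.14 ± 0.16 and 0.09 ± 0.16 in the same 3 comparisons. Among the 10 genes, Anxa6 had the smallest standard error.

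The galectin genes differed in how they ordered the states. Lgals1 encodes a secreted galectin that can trigger death of activated T cells, and lies on chromosome 15, 78926725 to 78930465. Its level was 152, 97.3 and 72.8 in Hopx-high libraries, 54.6, 41.3 and 62.7 in Hopx-low libraries, and 51.5, 62.6 and 60.6 in naive libraries. Every Hopx-high library exceeded every other library, but the Hopx-high libraries spread widely, with replicate 1 the highest and replicate 3 the lowest. The means were 108 ± 40.8, 52.8 ± 10.8 and 58.2 ± 5.89 (SD, n = 3 each). On the log2 scale Lgals1 differed by 0.81 ± 0.26 for Hopx-high against naive, −0.15 ± 0.26 for Hopx-low against naive and 0.97 ± 0.26 for Hopx-high against Hopx-low. Hopx-high replicate 1 carried much of it: without that library, the difference was 0.53 against naive and 0.68 against Hopx-low, neither called. The call against naive was also lost without naive replicate 1, at 0.73, or naive replicate 3, at 0.84, and of 9 libraries left out in turn the call against Hopx-low held only without Hopx-high replicate 3, at 1.21. A pseudogene copy of Lgals1 is annotated on chromosome 17, and the sources used here do not say how reads with several matches were counted.

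Lgals3, the galectin whose extra tail lets it cross-link receptors and damp T-cell receptor signals, was graded over the states. It lies on chromosome 14, 47373860 to 47386167. Its level was 3.02, 5.15 and 8.02 in Hopx-high libraries, 3.27, 2.40 and 1.68 in Hopx-low libraries, and 1.08, 1.53 and 0.866 in naive libraries. Both activated states lay above naive without overlap, and they overlapped each other. The log2 difference was 1.50 ± 0.47 for Hopx-high against naive, 0.66 ± 0.47 for Hopx-low against naive and 0.84 ± 0.47 for Hopx-high against Hopx-low. Coverage summed to 25.6 reads in Hopx-high, 14.2 in Hopx-low and 8.13 in naive cells. The Hopx-high call against naive was lost without naive replicate 1, at 1.48, naive replicate 3, at 1.41, or Hopx-high replicate 3, at 1.22.

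Counted together, all 10 genes passed the filter, and each did so through more than its highest state. Against naive cells, 6 of 10 were called higher in Hopx-high cells and none lower, beside 8.41% of all tested genes called higher and 15.1% called lower (23.6% either way). In Hopx-low against naive cells, 1 of 10 was called higher, Hopx itself, and none lower, beside 4.75% of tested genes called higher and 3.64% lower (8.39% either way). In Hopx-high against Hopx-low cells, 4 of 10 were called higher (Hopx, S100a4, Anxa2 and Lgals1) and none lower, beside 1.22% called higher and 0.919% lower (2.14% either way). The median log2 difference of the 10 was 1.16, −0.15 and 0.90 in those comparisons, against −0.29, −0.16 and −0.10 over all tested genes. Hopx-high libraries did not overlap naive ones, from above, for 6 of 10 genes and 13.2% of all tested genes. The same held for 2 of 10 and 10.9% in Hopx-low against naive and for 5 of 10 and 6.52% in Hopx-high against Hopx-low. As the genes were chosen with these values known, nothing follows from the counts about the families. The 3 comparisons share libraries, so their values are not independent.

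**Figure D2:**
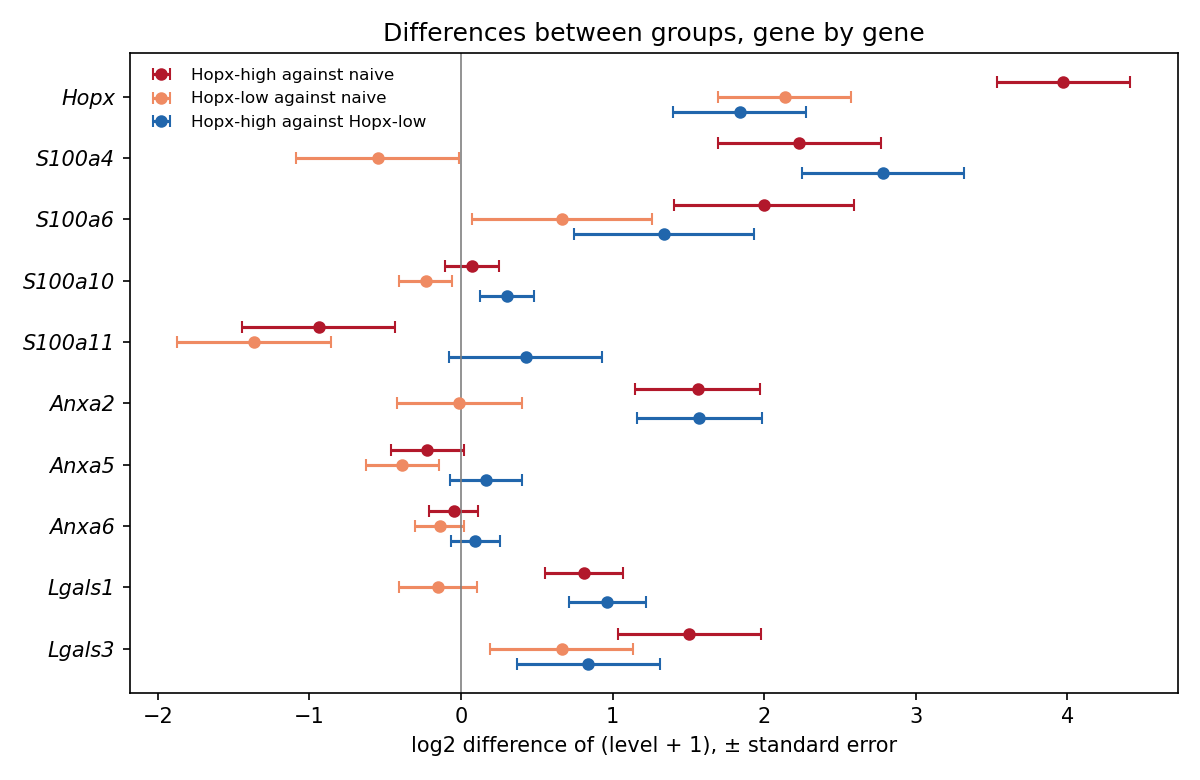
Log2 difference of (level + 1) with its standard error for the 10 genes (horizontal axis) in the 3 comparisons, 1 colour each. S100a4, Anxa2 and Lgals1 lie to the right of 0 in both comparisons that involve Hopx-high cells and near or left of 0 for Hopx-low against naive, at −0.55, −0.01 and −0.15.

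Scaling bears on all of these differences. Under upper-quartile scaling, 1382 genes were called higher and 1182 lower in Hopx-high against naive cells, and under quantile normalization 1337 and 1306, compared with 952 and 1714 here. The median over all genes for that comparison was −0.09 and −0.11 under those scalings, against −0.29. Every member called in a comparison kept its direction under both scalings.

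Most other genes of the 3 families were barely covered or not called. Of 32 other S100, annexin and galectin genes, 31 were in the table, 12 were at 0 in every library and 10 passed the filter. The genes at 0 included S100a8, which neutrophils make in abundance, and S100b. In limma, Anxa7 was the only one of the 10 called, lower in Hopx-high than in naive cells, beside 15.1% of all tested genes called lower and 23.6% called either way. Anxa7, an annexin of secretory membranes, had levels of 21.5, 24.8 and 20.5 in Hopx-high, 22.3, 34.3 and 30.5 in Hopx-low and 49.0, 32.7 and 55.9 in naive libraries. Its log2 difference for Hopx-high against naive was −0.98 ± 0.28 (limma, adjusted p = 0.0153). That call was lost without naive replicate 1, at −0.92, naive replicate 3, at −0.83, or Hopx-high replicate 3, at −0.93. None was called in Hopx-low against naive, where 2 had an unadjusted p below 0.05 in limma. None was called in Hopx-high against Hopx-low either, where 0 did. Of all 11320 tested genes, 8.39% and 2.14% were called in those comparisons, and 2612 and 1500 had such a p. Lgals9, the ligand of the inhibitory receptor Tim-3, averaged 239.5 ± 5.60 in Hopx-high, 261 ± 33.8 in Hopx-low and 224 ± 77.2 in naive libraries (SD, n = 3 each). Lgals8 averaged 23.6 ± 6.19, 24.6 ± 1.59 and 36.7 ± 4.37, and Anxa11 101 ± 4.04, 113 ± 12.7 and 118.5 ± 15.0, in the same order of states. The levels of the remaining 5 were low, with a highest library of 4.09 for Anxa4, 5.68 for S100a9, 2.11 for Lgals4, 5.45 for Lgals6 and 2.43 for Grifin. Lgals4 and Lgals6 are close copies, so their split is uncertain. The median log2 difference of the 10 was −0.35 for Hopx-high against naive, −0.48 for Hopx-low against naive and −0.05 for Hopx-high against Hopx-low.

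**Figure D3:**
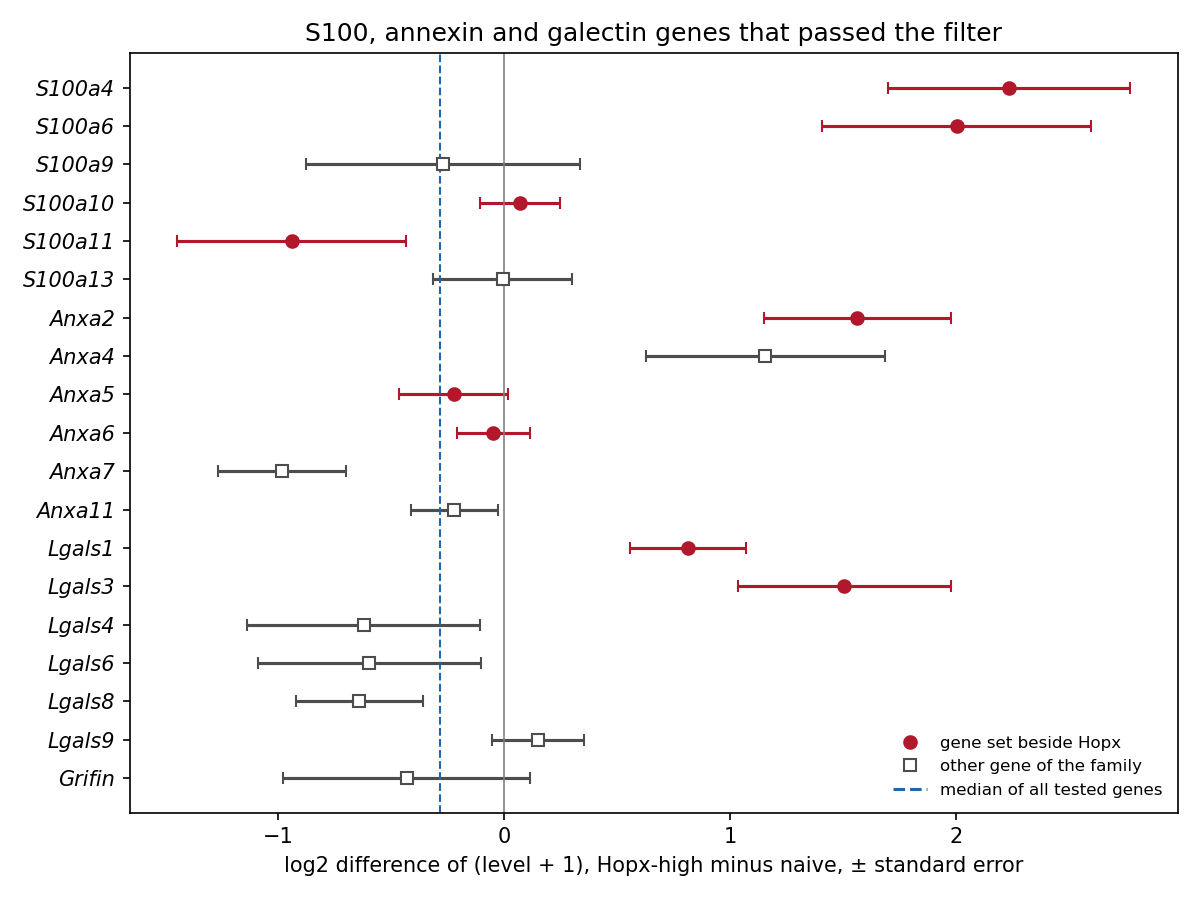
Log2 difference of (level + 1), Hopx-high minus naive, with its standard error (horizontal axis), for each S100, annexin and galectin gene that passed the filter. Filled circles are the genes set beside Hopx, open squares the other genes of the families and the dashed line the median of all tested genes, at −0.29; Anxa7, at −0.98, is the only open square that was called.

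Genes that bind these proteins or carry their ligands were examined as a list of 16, of which 13 passed the filter. In Hopx-high against naive cells, 3 rose and 1 fell in limma, against backgrounds of 8.41% and 15.1%. Lag3, an inhibitory receptor that galectin-3 can bind, averaged 60.4 ± 12.7 in Hopx-high, 43.7 ± 6.48 in Hopx-low and 0.0985 ± 0.171 in naive cells (SD, n = 3 each). Its log2 difference was 5.80 ± 0.34 for Hopx-high against naive (limma, adjusted p = 1.15e-11) and 5.35 ± 0.34 for Hopx-low against naive (limma, adjusted p = 1.34e-10). Cd44, the hyaluronan receptor that marks memory T cells, averaged 165 ± 42.4, 108 ± 30.3 and 37.4 ± 14.9 in that order. It was 2.17 ± 0.29 higher in Hopx-high than in naive cells (limma, adjusted p = 6.82e-06) and 1.55 ± 0.29 higher in Hopx-low than in naive cells (limma, adjusted p = 0.000932). Itgb1, an integrin chain decorated with galectin-binding sugars, was 1.59 ± 0.34 higher in Hopx-high than in naive cells (limma, adjusted p = 0.00151). Spn, which encodes the galectin-1 ligand CD43, was the gene that fell, by 0.59 ± 0.19 on the log2 scale (limma, adjusted p = 0.0327). Spn was no longer called without naive replicate 1, 2 or 3, at −0.62, −0.61 and −0.53, or without Hopx-high replicate 1 or 3, at −0.50 and −0.61. Ahnak, a giant scaffold held at the membrane by S100a10 and Anxa2, averaged 44.1 ± 31.6 in Hopx-high, 10.6 ± 6.61 in Hopx-low and 18.8 ± 8.34 in naive cells, and was not called. None of the 13 was called between Hopx-high and Hopx-low cells in limma, with 3 at an unadjusted p below 0.05. Of all 11320 tested genes, 2.14% were called there and 1500 had such a p.

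Of 10 genes for Hopx partners and AP-1 factors, 9 passed the filter. In Hopx-high against naive cells, 2 were called lower and none higher, beside 15.1% and 8.41% of all tested genes. In Hopx-low against naive cells, 1 was called higher and none lower, beside 4.75% and 3.64%. Srf averaged 424 ± 46.8 in Hopx-high, 447 ± 23.1 in Hopx-low and 365 ± 31.3 in naive cells, and Hdac2 averaged 11.5 ± 3.15, 13.4 ± 3.58 and 13.8 ± 0.971 (SD, n = 3 each), with no call for either. The AP-1 subunit gene Junb fell by 0.84 ± 0.21 on the log2 scale in Hopx-high against naive cells (limma, adjusted p = 0.005), to 523 ± 25.3 against 966 ± 289. Jund fell by 0.50 ± 0.18 in the same comparison (limma, adjusted p = 0.0408). The Jund call was lost without naive replicate 2 or 3, at −0.49 and −0.33, without Hopx-low replicate 3, at −0.50, or without Hopx-high replicate 1, 2 or 3, at −0.56, −0.47 and −0.48. Fosl2, another AP-1 subunit gene, was 1.35 ± 0.35 higher in Hopx-low than in naive cells (limma, adjusted p = 0.0174). That call was lost without naive replicate 1 or 2, at 1.29 and 1.30, or without Hopx-low replicate 2 or 3, at 1.10 and 1.28. The other AP-1 genes tested did not move one way in Hopx-high against naive cells, and none was called there. Fosb, Fos and Fosl2 were higher, by 1.05 ± 0.52, 0.37 ± 0.62 and 0.46 ± 0.35, and Jun was lower, by 1.09 ± 0.52. No gene of this list was called between Hopx-high and Hopx-low cells in limma, with 2 at an unadjusted p below 0.05. Of all 11320 tested genes, 2.14% were called there and 1500 had such a p.

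A list of 25 genes known from memory and effector T cells did not move one way. It shares 3 genes, Cd44, Itgb1 and Ahnak, with the list of binding partners, so the calls of Cd44 and Itgb1 count in both lists. Of 22 that passed the filter, 9 rose and 8 fell in Hopx-high against naive cells, beside 8.41% and 15.1% of all tested genes. Of those 9, 2 passed the filter only through Hopx-high libraries, Ccl5 among them, and so had to differ. In Hopx-low against naive cells, 6 rose and 9 fell, beside 4.75% and 3.64%. The genes that rose included Il2rb, the shared receptor chain for interleukins 2 and 15, at 805 ± 68.6 in Hopx-high and 654 ± 15.0 in Hopx-low against 11.5 ± 4.70 in naive cells (SD, n = 3 each). Cxcr3, a chemokine receptor of type 1 helper cells, averaged 77.8 ± 23.0 in Hopx-high, 22.4 ± 3.00 in Hopx-low and 1.06 ± 1.37 in naive cells. Bhlhe40, a transcription factor of effector cells, averaged 57.9 ± 4.19, 34.9 ± 7.41 and 1.30 ± 0.264. Itgal, an integrin chain, was 1.03 ± 0.16 higher in Hopx-high than in naive cells (limma, adjusted p = 4.29e-05). Tbx21 also rose in Hopx-high against naive cells. Tbx21 was no longer called without naive replicate 1, at 1.82, Hopx-high replicate 1, at 1.90, or Hopx-high replicate 2, at 1.53.

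Several genes that often accompany S100a4 and Lgals1 in memory cells fell instead. Crip1 averaged 146 ± 31.5 in Hopx-high and 165 ± 29.0 in Hopx-low against 302 ± 34.7 in naive cells. Tagln2, an actin-binding protein gene, averaged 230.2 ± 52.1 and 228.5 ± 11.7 against 563 ± 67.7, and Emp3, a membrane protein gene, averaged 59.9 ± 5.43 and 74.2 ± 10.6 against 141 ± 27.0 (SD, n = 3 each). In limma, Tagln2 was 1.30 ± 0.18 lower in Hopx-high than in naive cells (log2 difference −1.30, adjusted p = 1.22e-05). Ly6c1, which has a near copy in Ly6c2, was lower in both activated states than in naive cells and lower in Hopx-high than in Hopx-low cells, at 10.4 ± 1.87 in Hopx-high and 43.2 ± 8.83 in Hopx-low against 300 ± 45.5 in naive cells. Ly6a, Itga4, Il18r1 and Prdm1 also fell in Hopx-high against naive cells. In Hopx-low cells the calls of Itga4, Prdm1, Tbx21, Vim and Emp3 against naive were lost when 5, 6, 5, 3 and 1 of the 9 libraries were left out one at a time. Between Hopx-high and Hopx-low cells, Cxcr3 was called higher. Ccl5, a chemokine gene, was at 4.13, 8.62 and 4.67 in Hopx-high libraries and below a level of 1 in every other library, so its presence among the tested genes already reflects that difference. The Cxcr3 call was lost without Hopx-low replicate 2 or 3, at 1.68 and 1.67, or Hopx-high replicate 1 or 3, at 1.50 and 1.88.

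Summed levels of macrophage and B-cell markers were highest in the Hopx-high libraries, though few single markers were called. S100a4, S100a6, Anxa2 and Lgals3 are known to be abundant in macrophages. In bulk libraries fewer cells of a type and less RNA per cell cannot be told apart. Of 11 monocyte and macrophage markers, 10 were in the table and none was at 0 in every library. Their summed level was 82.8 to 154 in Hopx-high, 16.9 to 52.1 in Hopx-low and 20.7 to 55.0 in naive libraries. In limma 8 were tested, and 1 was called higher in Hopx-high cells against naive and 1 against Hopx-low. Of all tested genes, 8.41% and 1.22% were called higher in those comparisons. Cd68 was called in neither, at 0.12 ± 0.50 against naive and 0.80 ± 0.50 against Hopx-low. Lyz2 was called higher in Hopx-high than in naive cells (log2 difference 1.91 ± 0.50, limma, adjusted p = 0.00787), though not without naive replicate 1, at 1.44. Csf1r was called higher in Hopx-high than in Hopx-low cells (2.64 ± 0.65, limma, adjusted p = 0.0365), a call lost without Hopx-low replicate 1 or 3, at 1.72 and 2.79, or any Hopx-high replicate, at 2.77, 2.34 and 2.80. The 9 B-cell markers summed to 62.0 to 97.6 in Hopx-high, 9.96 to 19.9 in Hopx-low and 11.05 to 49.7 in naive libraries, and none was at 0 throughout. Of 8 tested, 3 were called higher in Hopx-high cells in each comparison, beside 8.41% of all tested genes against naive and 1.22% against Hopx-low. They were Cd79b, Cd22 and Fcer2a against naive cells and Cd79a, Cd79b and Cd22 against Hopx-low cells. Of the 8, 3 passed the filter only through Hopx-high libraries, Fcer2a, Ebf1 and Blnk, so the call of Fcer2a rests on the state where it was high. Cd22 was 2.38 ± 0.58 higher against naive (limma, adjusted p = 0.00505), and the call held with any library left out. Of the other 5 calls, those against naive were lost in 3 of 9 leave-outs for Cd79b and 4 for Fcer2a, and those against Hopx-low in 1 for Cd79b, 4 for Cd22 and 7 for Cd79a. The part of these cells in the levels of S100a4, S100a6, Anxa2, Lgals1 and Lgals3 was not tested.

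**Figure D4:**
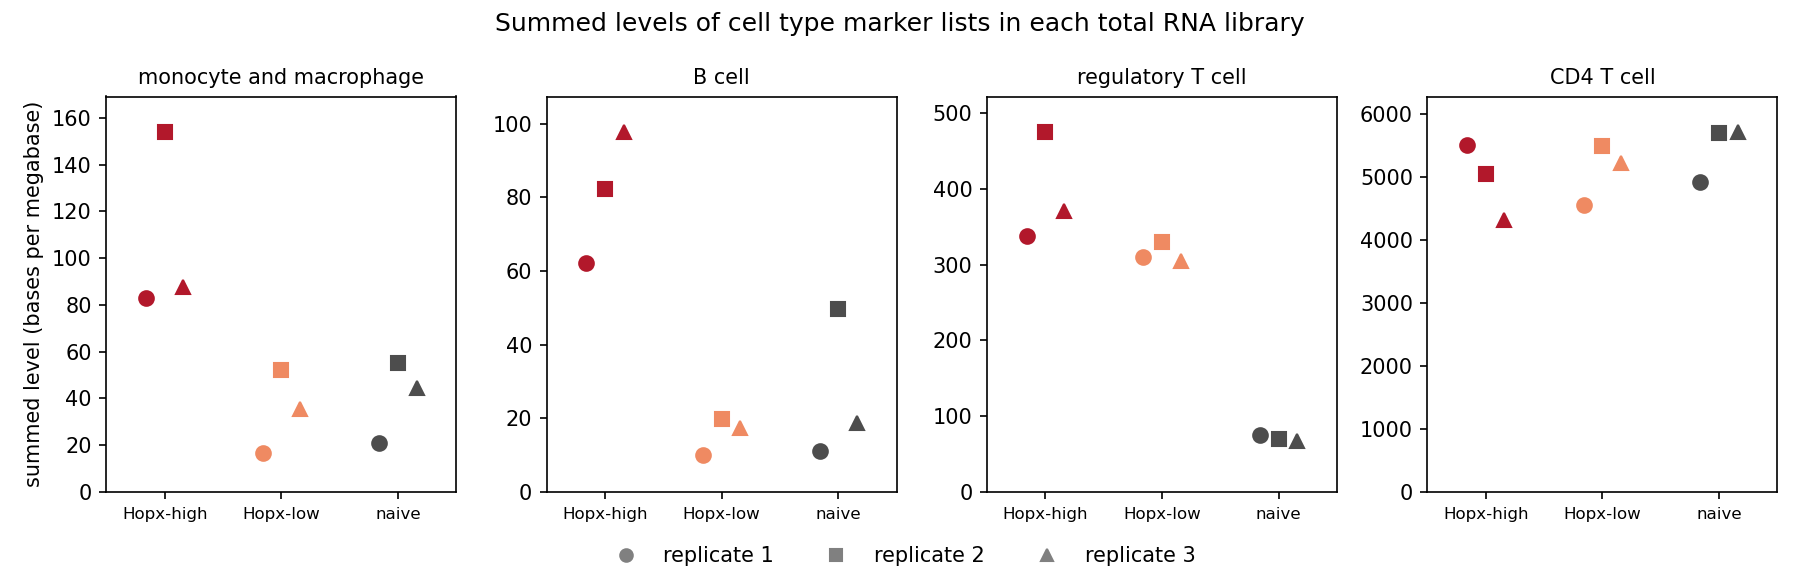
Summed level, in bases per megabase, of 4 marker lists (vertical axes, each starting at 0) in Hopx-high, Hopx-low and naive libraries, with 1 point per library and a symbol per replicate number. The macrophage and B-cell sums are highest in the 3 Hopx-high libraries, from 82.8 and 62.0 up, and the regulatory T-cell sums are high in both activated states, from 305 up.

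Among the other marker lists, only the regulatory T-cell sums were highest in all 3 Hopx-high libraries. The 7 neutrophil markers in the table summed to 0 to 2.99 in Hopx-high, 0 to 0.970 in Hopx-low and 0.620 to 5.96 in naive libraries, with S100a8, Mpo and Elane at 0 throughout (S100a8 and S100a9 of this list are also counted with the S100 family above). Dendritic-cell markers summed to 1.94 to 9.04, 0 to 5.89 and 0.329 to 2.25 in the same order, with Xcr1 at 0 throughout, and plasma-cell markers to 33.8 to 50.1, 41.3 to 68.1 and 31.7 to 63.6, with Tnfrsf17 at 0 throughout. Stromal and endothelial markers summed to 126 to 179, 124 to 188 and 173 to 238, with Pdgfra, Pdpn and Dcn at 0 throughout, and erythroid and platelet markers to 16.4 to 53.4, 13.3 to 24.5 and 16.7 to 43.7, with Pf4 at 0 throughout. Itga2b of the last list was called lower in Hopx-high than in naive cells, a call lost in 7 of 9 leave-outs. The sum of the CD8, natural killer and innate lymphoid markers was 42.1 to 47.4 in Hopx-high and 52.6 to 84.0 in Hopx-low against 131 to 151 in naive libraries, and most of it was Cd8b1. Of 8 markers 2 were tested, and Cd8b1 was called lower in both activated states, though in Hopx-low not without naive replicate 3, at −0.90. The natural killer marker Klrb1c was at 1.32, 3.65 and 0 in Hopx-high and 0, 0.462 and 0 in Hopx-low libraries against 0 in every naive library. Ncr1 and Klrk1 were covered in Hopx-high replicate 2 alone, at 0.333 and 0.341, and Klre1 in Hopx-high replicate 3 alone, at 1.29. That coverage was worth 0.782, 0.8 and 1.26 reads. Klrd1 was at 0 in every Hopx-high library, at 0, 0.285 and 0 in Hopx-low and at 0, 2.43 and 1.68 in naive libraries. Gzma was at 0.972, 0.632 and 1.57 in Hopx-high, 0 in every Hopx-low and 0.597, 3.34 and 0.564 in naive libraries. Regulatory T-cell markers summed to 338 to 475 in Hopx-high and 305 to 330 in Hopx-low against 67.6 to 75.3 in naive libraries, with Il10 at 0 throughout. Of 6 tested, 4 were called higher in Hopx-high and 5 in Hopx-low than in naive cells. Of all tested genes, 8.41% and 4.75% were called higher in those comparisons. The Hopx-low calls of Il2ra and Foxp3 were lost in 2 and 1 of 9 leave-outs. Foxp3, the defining factor of that lineage, was 2.40 higher on the log2 scale in Hopx-high than in naive cells (limma, adjusted p = 0.000851), and Ikzf2 was 6.68 higher (limma, adjusted p = 9.07e-13). None of the regulatory T-cell markers was called between Hopx-high and Hopx-low cells in limma, with 3 at an unadjusted p below 0.05. Of all 11320 tested genes, 2.14% were called there and 1500 had such a p. The regulatory T-cell markers did not all order these states alike. Ikzf2 was at 104, 229 and 149 in Hopx-high and 58.8, 82.1 and 71.6 in Hopx-low libraries. Il2ra lay lower in Hopx-high libraries, at 7.07, 11.8 and 6.46, than in Hopx-low ones, at 17.0, 25.6 and 18.1. The part of regulatory T cells in the levels of Hopx and Lgals3 was not tested.

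The 9 genes were not the ones whose pattern was closest to that of Hopx. Likeness was measured as the root-mean-square difference between log2 levels over 9 libraries, after each gene was centred on its own mean, so that 0 would be the same pattern. Levels were not scaled, so a gene with the same order of states but smaller steps than Hopx also lies further off. The 8 nearest of 11319 genes were Olfml3 at 0.316, Hist1h2bk at 0.327, Ccna2 at 0.328, Hist1h2bp at 0.349, Hist1h2bq at 0.372, Spc24 at 0.381, 2810417H13Rik at 0.382 and Hist1h2bf at 0.404, against a median of 1.82. Ccna2 encodes cyclin A2, Spc24 a kinetochore subunit and the Hist1h2b genes histones H2B. The histone genes share sequence, so their split is uncertain. Ccna2 averaged 25.8 ± 1.07 in Hopx-high, 4.96 ± 1.19 in Hopx-low and 0.611 ± 0.699 in naive cells (SD, n = 3 each). Within the set, Lgals3 ranked 607th at 1.20, Anxa2 612th at 1.21, S100a6 719th at 1.26, S100a4 1058th at 1.39 and Lgals1 1156th at 1.41. S100a10 at 1.66, Anxa6 at 1.69, Anxa5 at 1.80 and S100a11 at 2.13 were further off, and S100a11 lay beyond the median gene. The libraries share a state, a depth and a Lars2 share, so these distances describe the 9 libraries alone.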

How the data were processed

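Total RNA was measured in 9 libraries of CD4+ T cells, and the 9 small RNA libraries of the series were not used, since that table holds none of the 10 genes. Per the labels' protocols, Trizol and mirVana extraction was followed by ribosomal depletion and Ion Torrent library construction. The submitters' processing notes name mm10 and bedtools; the sources used here name no aligner, annotation, strand setting or rule for reads with several matches, so reads of overlapping and antisense genes cannot be separated. The authors deposited a signal per gene and library. Divided by its column's smallest value, each signal was whole in 100% of cases (relative tolerance 1e-06), that is, covered bases plus 1, scaled to a common total. These are bases and not reads, so no count test was used.

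Bases were recovered and expressed per megabase covered, a pseudocount of 1 was added, and genes reaching a level of 1 in 3 or more of 9 libraries (11320 of 23219) were fitted with limma 3.58.1 in R 4.3.3 (trend and robust settings, 1 shared spread, Benjamini-Hochberg over all tested genes). The same fit was also run on simulated data with known changes. Tables and figures used Python 3.11.15, pandas 2.3.3, numpy 2.4.6 and matplotlib 3.10.9. Depth was 105 to 329 megabases, and since separate animals are not stated, p-values reflect only spread among these libraries, which may be technical. Within a state at most 0.0651% of genes had equal coverage in a pair of libraries, so each library counted once. The 10 genes, gene lists and marker lists were chosen with earlier results of these data known. Named are the 10 genes, every other family gene that passed the filter, genes called in the other lists and the 8 genes nearest to Hopx. Srf, Hdac2, Ahnak and S100a5 were added for their roles. Fos, Fosb, Jun, Cd68 and uncalled CD8, natural killer and innate lymphoid markers were added to show more of their lists. Values of some listed genes are not reported here. Motifs were searched in RefSeq promoter windows. Alternatives covered scaling, pseudocount, filter, model settings, a replicate block and each library left out in turn, and a fit on replicates 1 and 2 alone was added after the data were seen.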

Additional observations from a re-analysis of the deposited data

How the results depend on the processing

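No call of the 10 genes reversed under any of the 22 alternatives. Low coverage limits S100a4, S100a6, S100a11 and Lgals3. In Hopx-high against naive cells, 6 of the 10 genes were called, against 3 on the deposited scale, 2 with replicates 1 and 2 alone (S100a4, S100a6, Anxa2 and Lgals3 were lost, at 1.76, 1.50, 1.26 and 1.12) and 2 to 6 when each library was left out in turn. In Hopx-low against naive cells, 1 was called, against 0 on the deposited scale (2 at an unadjusted p below 0.05 in limma) and 1 with each library left out. In Hopx-high against Hopx-low cells, 4 were called. That became 0 on the deposited scale or with a pseudocount of 0.1 (3 and 4 at an unadjusted p below 0.05), 1 with no filter or with replicates 1 and 2 alone, 2 without trend and robust settings or without both Lars2-rich libraries, and 1 to 2 with each library left out. Over all genes, 2666 calls in Hopx-high against naive became 1106 with replicates 1 and 2 alone, and 1724 to 3145 with each library left out. In Hopx-low against naive, 950 became 614 without trend and robust settings, 456 with replicates 1 and 2 alone, and 577 to 1168. In Hopx-high against Hopx-low, 242 became 143 on the deposited scale, 154 with a pseudocount of 0.1, 159 without trend and robust settings, 69 with replicates 1 and 2 alone, and 132 to 277. The other family genes gave 1 call against naive in Hopx-high cells, 0 with replicates 1 and 2 alone and 0 to 2 with each library left out, and 0 throughout in the other comparisons. Fewer libraries are fitted where some are left out; otherwise the cause was not tested.

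With the replicate number as a block, 2 of the 10 genes were called in Hopx-high against Hopx-low cells (Anxa2 and Lgals1 were lost), while counts over all genes were 2677, 970 and 255. Same-numbered libraries correlated from −0.132 to 0.191 in their deviations from the group means, so they did not deviate together in every pair. The number does follow sex, since replicate 3 of each state carried Xist and replicates 1 and 2 Ddx3y, so the block also takes up part of any sex difference; the labels tie the number to no shared animal or batch.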
